A study of Drosophila melanogaster with 52 samples.

Results

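RNA levels of 9 heat shock genes were followed through early Drosophila embryogenesis in embryos in which the chromatin-associated protein dPCIF1, the histone chaperone HIRA or the histone variant H3.3 had been altered. The genes were *Hsp22*, *Hsp23*, *Hsp26*, *Hsp27*, *Hsp67Ba*, *Hsp68*, *Hsp83*, *Hsp70Aa* and *Hsp70Ba*, often used as model targets of GAGA factor (GAF, encoded by *Trl*). They were taken by name from the 16680 genes counted in each of 52 libraries, and all 9 were found in every library. The choice did not use their measured values, although earlier results of these data were known when it was made. Because *Hsp70Aa* and *Hsp70Ba* belong to 6 near-identical Hsp70 genes, the counts of those 6 genes were also summed.

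The libraries fell into 26 groups of 2 from 5 experiments, each with its own wild-type embryos of the w1118 strain. In mislocalized dPCIF1 mutant embryos, GFP-tagged dPCIF1 was held on lipid droplets by the JabbaTrap in a homozygous GFP knock-in background, so that the protein was moved rather than removed. Maternal mutant embryos of HIRA, a chaperone for the histone variant H3.3, and of both H3.3 genes lacked the maternal product. Their label, M-Z+, marks the zygotic copy as intact, but whether every embryo carried such a copy was not tested. The paper also cites a role of HIRA in forming the diploid zygote. The H3.3 mothers were the few homozygous adults that survive. In the overexpression experiment, embryos carried extra HIRA, or extra HIRA and dPCIF1, from UASp transgenes used with a maternal germline GAL4 driver, and the last experiment compared dPCIF1 S111A S115A mutant embryos, in which both serines were replaced by alanine. Embryos were taken at 0.5 to 1 h and 1 to 1.5 h in all 5 experiments, and also at 2.5 to 3 h for HIRA, H3.3 and their wild types. Each library was made from a pool of hand-selected embryos, and differences in strain background cannot be told apart from the named alleles.

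Heat shock genes are kept poised in unstressed Drosophila cells. GAF binds GA repeats in promoters such as those of Hsp70 and *Hsp26* and helps to keep nucleosomes off them. RNA polymerase II pauses shortly downstream until heat shock factor (HSF) trimerizes on the promoter. The small heat shock proteins hold unfolding proteins in a soluble state, Hsp70 proteins refold them with ATP, and *Hsp83* is the fly Hsp90. Some of these RNAs are present in early embryos without any heat. *Hsp26*, *Hsp27* and *Hsp83* are transcribed in the nurse cells of the ovary and deposited in the egg, and maternal *Hsp83* RNA is then degraded in most of the embryo and protected in the posterior pole plasm.

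Of the 9 genes, 5 lie side by side on chromosome 3L of the dm6 assembly, within 12764 bp: *Hsp22* (9372931 to 9374964, + strand), *Hsp26* (9376418 to 9377427, − strand), *Hsp67Ba* (9377802 to 9379534, − strand), *Hsp23* (9381882 to 9382765, + strand) and *Hsp27* (9384063 to 9385694, + strand). *Hsp83* is elsewhere on 3L (3192969 to 3197059, + strand) and has 2 exons. *Hsp68* is on 3R (24055080 to 24057310, − strand). The Hsp70 copies form 2 loci on 3R. *Hsp70Aa* (11954163 to 11956544) and *Hsp70Ab* lie within 6747 bp at cytological position 87A, and *Hsp70Ba* (12465453 to 12467776), *Hsp70Bb*, *Hsp70Bbb* and *Hsp70Bc* within 46009 bp at 87C, with 504543 bp between the loci. *Hsp22* overlaps its neighbour *Hsp67Bb* in the annotation, so that reads in the shared stretch cannot be divided between them with certainty.

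Library totals ranged from 15073545 to 31579940 estimated counts, with a median of 23610130. The RNA of the altered gene was read as a check of the labels. In CPM (counts scaled to library size), *Hira* at 0.5 to 1 h was at 2353 and 2331 CPM in HIRA-overexpressing embryos, against 172 and 172 CPM in wild type. *His3.3B* was at 247 and 242 CPM in *H3.3* maternal mutant embryos, against 674 and 697 CPM in wild type. *Hira* RNA was at 70.5 and 70.9 CPM in *HIRA* maternal mutant embryos, against 178 and 164 CPM in wild type at that stage. At 2.5 to 3 h it was higher in those mutants, at 21.0 and 19.0 CPM, against 9.58 and 8.74 CPM in wild type. *CG11399*, which encodes dPCIF1, was at 2683 and 2648 CPM with both transgenes at 0.5 to 1 h, against 456 and 462 CPM in wild type. In dPCIF1 S111A S115A mutant embryos, labelled as a change of 2 residues, the level of *CG11399* RNA itself was lower than in wild type. It was at 76.7 and 74.8 CPM, against 377 and 384 CPM in wild type, at 0.5 to 1 h, and at 73.2 and 75.6 CPM, against 390.0 and 372 CPM in wild type, at 1 to 1.5 h. A change of residues and less of the RNA cannot be told apart in any comparison of that mutant. The JabbaTrap moves a protein, so that RNA does not check that label. All CPM values here are on 1 common scale across the 52 libraries. They compare groups for 1 gene, and TPM, which also divide by transcript length, were used wherever genes were set side by side.

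*Hsp83* was the most abundant of the 9 RNAs, with a mean of 1758 TPM over the 52 libraries, followed by the maternally deposited *Hsp26* at 1131 TPM and *Hsp27* at 693 TPM. *Hsp23* had a mean of 70.5 TPM, *Hsp70Aa* 50.8 TPM and *Hsp22*, a small heat shock protein of the mitochondrial matrix, 41.7 TPM. *Hsp68*, an inducible member of the Hsp70 family, had a mean of 8.07 TPM. *Hsp70Ba* at 0.603 TPM and *Hsp67Ba* at 0.408 TPM were close to the detection limit, and *Hsp70Ba* had no more than 3 counts in both libraries of 8 of the 26 groups.

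The genes differed in how far their level ranged over the 26 groups. Group means of *Hsp26* ran from 20.03 CPM in the 2.5 to 3 h wild type of the HIRA experiment to 1186 CPM in *H3.3* maternal mutant embryos at 0.5 to 1 h, a 59.2-fold range. *Hsp27* covered a 53.1-fold range between 20.1 CPM in the same wild type and 1066 CPM in 0.5 to 1 h *HIRA* maternal mutant embryos. The summed Hsp70 copies covered the widest range, 119-fold, with 8.55 CPM in HIRA-overexpressing embryos at 0.5 to 1 h and 1016 CPM in the 2.5 to 3 h wild type of the HIRA experiment. The maternally deposited RNAs were thus lowest where the Hsp70 sum was highest. *Hsp83* ranged 14.9-fold (388 to 5790 CPM), *Hsp68* 12.7-fold (3.06 to 39.0 CPM), *Hsp23* 10.1-fold (9.37 to 94.5 CPM), *Hsp67Ba* 6.22-fold (0.223 to 1.39 CPM) and *Hsp22* 6.05-fold (7.17 to 43.3 CPM). Ordered by level, many neighbouring groups could not be separated by their replicates: of 25 neighbouring pairs, libraries overlapped in 7 for the Hsp70 sum, 9 for *Hsp68*, 10 for *Hsp23*, 12 each for *Hsp26* and *Hsp83*, 15 each for *Hsp22* and *Hsp27*, and 23 for *Hsp67Ba*.

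**Figure D1:**
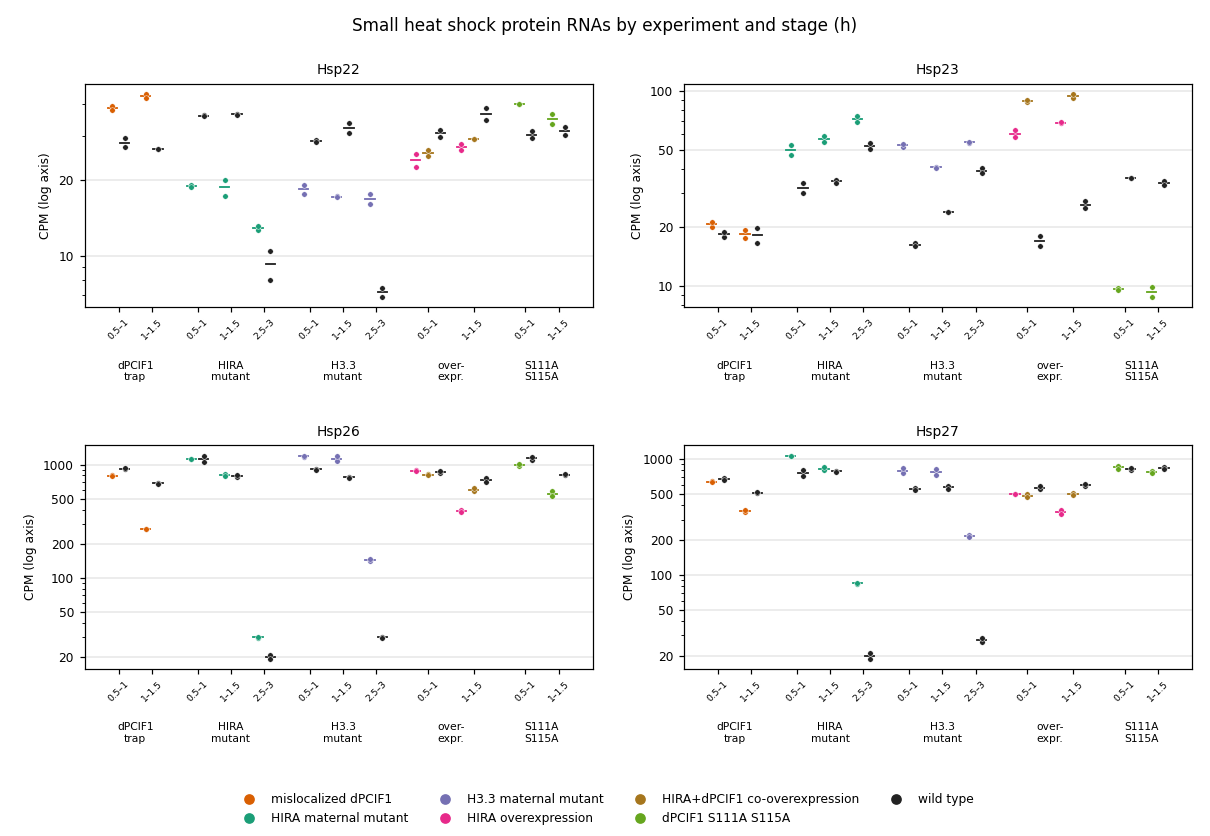
Levels of *Hsp22*, *Hsp23*, *Hsp26* and *Hsp27* in every library, in CPM on a log axis, by experiment and stage (h), with each mutant or overexpression group left of its wild type; points are libraries and bars are means of 2. *Hsp26* and *Hsp27* drop by more than an order of magnitude in wild type at 2.5 to 3 h, and by less in *H3.3* maternal mutant embryos. *Hsp23* stands highest in embryos with both transgenes and lowest in dPCIF1 S111A S115A mutant embryos.

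The 5 wild-type collections were not alike for 2 of these RNAs, which bears on every comparison of them. At 0.5 to 1 h, the mean Hsp70 sum of a wild-type collection ranged 7.30-fold, with 32.6 CPM in the JabbaTrap experiment and 238 CPM in the HIRA experiment. By 1 to 1.5 h it ranged 10.6-fold, with 28.3 and 301 CPM in the same collections. *Hsp68* ranged 5.12-fold between wild-type collections at 0.5 to 1 h and 5.401-fold at 1 to 1.5 h, and again the wild type of the HIRA experiment stood apart, at 39.0 and 37.5 CPM. Its libraries at 0.5 to 1 h also held RNA of follicle cells, the ovarian cells around the egg. The 4 marker genes summed to 0.686 and 0.713 CPM in *HIRA* maternal mutant embryos and to 38.4 and 35.3 CPM in that wild type. The 3 yolk protein markers then summed to 1.03 and 0.872 CPM in the mutant and to 37.7 and 34.9 CPM in that wild type. At 1 to 1.5 h, where the Hsp70 sum of that wild type was at 301 CPM, its follicle cell markers summed to 1.58 and 1.63 CPM. Its yolk protein markers were then at 1.11 and 1.21 CPM. The part of these markers in the heat shock values of that wild type was not tested. For the other RNAs the wild types lay closer at these stages, within 2.2-fold for *Hsp23*, 1.32-fold for *Hsp26*, 1.64-fold for *Hsp27*, 1.38-fold for *Hsp22* and 1.55-fold for *Hsp83*, while the low *Hsp67Ba* ranged up to 3.17-fold. Results are therefore given against the wild type of the same experiment and, where it matters, also against all wild-type libraries of the stage.

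A gene was called changed when its log2 fold change was above 1 in size with an adjusted p below 0.05 by the quasi-likelihood test of edgeR, adjusted over all genes tested (Benjamini-Hochberg). Adjusted p-values below come from this test unless another is named. When dPCIF1 was mislocalized, 1 of 9 members was called at 0.5 to 1 h, where 16.5% of all genes tested were called, and 3 of 9 at 1 to 1.5 h, where 27.5% were. In *HIRA* maternal mutant embryos the counts were 3 of 9 at 0.5 to 1 h (19.6% of all genes), 3 of 9 at 1 to 1.5 h (23.1%) and 5 of 9 at 2.5 to 3 h (35.5%). In *H3.3* maternal mutant embryos they were 3 of 9 (11.9%), 2 of 9 (14.3%) and 6 of 9 (43.3%) at the 3 stages. The latest stage had the most calls in both maternal mutants against their own wild types, but with the wild types of the other experiments as reference the counts in *HIRA* maternal mutant embryos were 3, 2 and 2 at the 3 stages. Of the 7 members that could be tested with HIRA overexpression, 2 were called at 0.5 to 1 h (14.7% of all genes) and 2 at 1 to 1.5 h (24.1%), and with HIRA and dPCIF1 together 2 (12.9%) and 2 (11.8%). In dPCIF1 S111A S115A mutant embryos 2 of 8 (6.49%) and 3 of 8 (14.7%) were called. With DESeq2 the overexpression groups had 1 call in place of 2, the one lost being *Hsp70Aa*. DESeq2 also lost *Hsp70Aa* in *HIRA* maternal mutant embryos at 1 to 1.5 h and in dPCIF1 S111A S115A mutant embryos at both stages. In *HIRA* maternal mutant embryos it lost *Hsp67Ba* at 0.5 to 1 h and at 2.5 to 3 h. Leaving out 1 library took the count to 0 in mislocalized dPCIF1 mutant embryos at 0.5 to 1 h (mutant replicate 1) and to 3 in *HIRA* maternal mutant embryos at 2.5 to 3 h (mutant replicate 2). In dPCIF1 S111A S115A mutant embryos at 0.5 to 1 h it was 1 whichever of the 4 libraries was left out, the call lost being *Hsp70Aa*. With 7 to 9 genes, which include copies that share reads, these counts are set beside the background only as a description. The median log2 fold change of the members lay between −0.68 and 0.54 in the 14 comparisons with wild type, against −0.11 to 0.04 for all genes tested, and members lay on both sides of 0 within these comparisons.

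**Figure D2:**
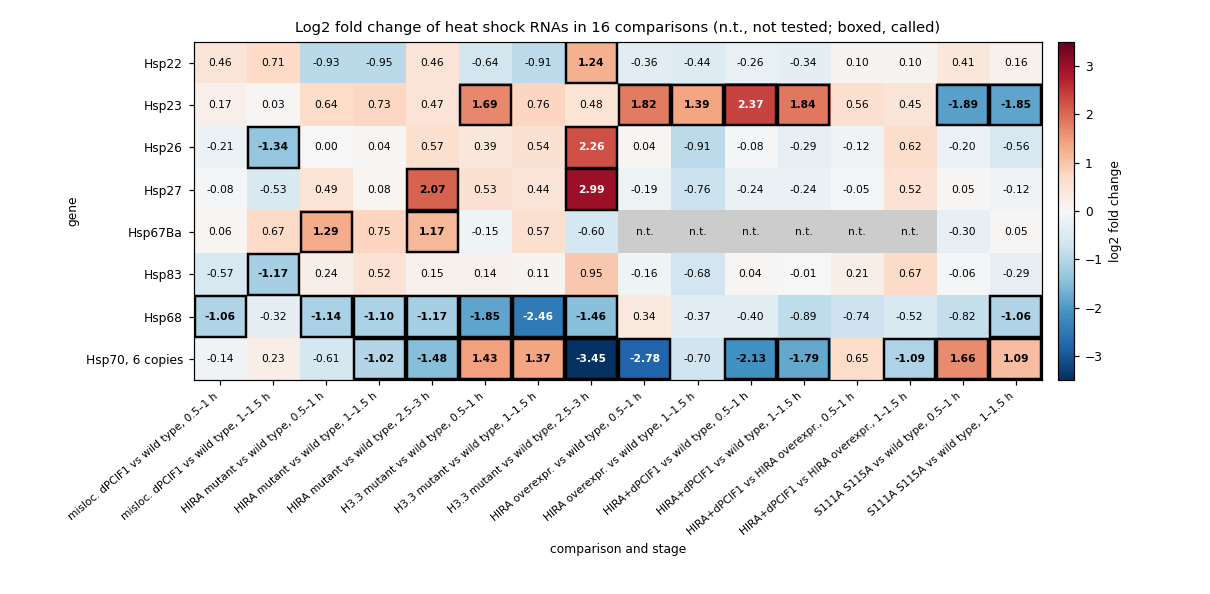
Log2 fold changes of 7 heat shock RNAs and the Hsp70 sum (rows) in 16 comparisons (columns), first-named group over second; red is higher, blue lower, boxed cells passed the test and the fold threshold, and n.t. marks *Hsp67Ba* where it was not tested. *Hsp68* is boxed in blue for all 3 stages of *HIRA* and *H3.3* maternal mutant embryos, and *Hsp23* is boxed in red for all 4 comparisons of an overexpression group with wild type.

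*Hsp23*, a small heat shock protein, rose in embryos with extra HIRA and fell in dPCIF1 S111A S115A mutant embryos. At 0.5 to 1 h it was at 57.8 and 63.1 CPM in HIRA-overexpressing embryos and at 88.2 and 89.5 CPM in embryos with both HIRA and dPCIF1, against 15.99 and 18.2 CPM in their shared wild type. The levels at 1 to 1.5 h were 68.7 and 69.1 CPM with HIRA and 92.2 and 96.7 CPM with both, against 27.3 and 25.0 CPM in wild type. Every overexpression library lay above every wild-type library. The log2 fold changes were 1.82 ± 0.0658 (SE) and 1.39 ± 0.0604 with HIRA (adjusted p = 1.80e-13 and 6.29e-13), and 2.37 ± 0.0604 and 1.84 ± 0.0590 with both (adjusted p = 2.34e-15 and 7.19e-14). Both groups share their wild-type libraries. Follicle cell markers were higher in the same embryos. They summed at 0.5 to 1 h to 40.9 and 41.8 CPM with HIRA and to 11.2 and 11.7 CPM with both, against 3.15 and 3.28 CPM in wild type. Later, at 1 to 1.5 h, they summed to 2.03 and 2.09 CPM with HIRA and to 40.1 and 39.2 CPM with both, against 0.0460 and 0.114 CPM in wild type. The group with the most *Hsp23* thus had the most marker RNA at the second stage but not at the first, and the part of these markers in the *Hsp23* values was not tested. Set against each other, embryos with both transgenes had log2 fold changes of 0.56 (adjusted p = 1.48e-07) and 0.45 (adjusted p = 2.49e-07) over those with HIRA alone, under the fold threshold.

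*Hsp23* was at 9.77 and 9.57 CPM in dPCIF1 S111A S115A mutant embryos at 0.5 to 1 h, against 35.7 and 35.9 CPM in wild type. The later mutant embryos, at 1 to 1.5 h, had 8.82 and 9.91 CPM, against 34.5 and 32.8 CPM in wild type. It fell by 1.89 (SE 0.0780, adjusted p = 9.31e-10) and by 1.85 (SE 0.0833, adjusted p = 1.89e-09) on the log2 scale, and lay below all 10 wild-type libraries at both stages. The 8 blastoderm zygotic markers summed to 936 and 899.7 CPM in this mutant at 0.5 to 1 h, against 426 and 414 CPM in wild type. The 4 follicle cell markers then summed to 38.6 and 38.8 CPM in the mutant, against 14.6 and 17.7 CPM in wild type, and at 1 to 1.5 h the 3 yolk protein markers summed to 0.998 and 1.17 CPM, against 122 and 124 CPM in wild type. The part of these markers was not tested. In the other direction, *Hsp23* was 3.23-fold higher in *H3.3* maternal mutant embryos at 0.5 to 1 h, at 51.8 and 53.4 CPM, against 16.6 and 16.03 CPM in wild type (log2 fold change 1.69 ± 0.0647, adjusted p = 1.12e-11). At the later stages of *H3.3* maternal mutant embryos the log2 fold changes were 0.76 and 0.48, and in *HIRA* maternal mutant embryos they were 0.64 ± 0.0772, 0.73 ± 0.0760 and 0.47 ± 0.0748, none past the fold threshold. All libraries of both maternal mutants were nevertheless above every wild-type library of their stage. Against the wild types of the other 4 experiments pooled, *HIRA* maternal mutant embryos had log2 fold changes of *Hsp23* of 1.26 and 1.19 at the 2 earlier stages, which passed. *Hsp23* overlapped with wild type only in mislocalized dPCIF1 mutant embryos at 1 to 1.5 h, at 17.7 and 19.4 CPM in the mutant and 19.8 and 16.6 CPM in wild type. Earlier, at 0.5 to 1 h, it was at 20.2 and 21.4 CPM in that mutant, against 17.8 and 19.1 CPM in wild type (log2 fold changes 0.17 ± 0.0874 at 0.5 to 1 h and 0.03 at 1 to 1.5 h, adjusted p = 0.0880 and 0.775).

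*Hsp26* and *Hsp27*, both deposited in the egg, and *Hsp83* fell together through the time course in wild type. In 0.5 to 1 h embryos, wild-type *Hsp26* was at 1179.6 and 1045 CPM in the HIRA experiment and at 915 and 897 CPM in the H3.3 experiment. By 2.5 to 3 h it was at 20.7 and 19.3 CPM in the HIRA wild type and at 30.3 and 29.5 CPM in the H3.3 wild type. Of the 9 members, 6 were called between 1 to 1.5 h and 2.5 to 3 h in the HIRA wild type (58.2% of all genes tested) and 6 in the H3.3 wild type (51.9%). Between these stages the log2 fold changes were −5.29 ± 0.0754 and −4.69 ± 0.0671 for *Hsp26* in the HIRA and H3.3 wild types. They were −5.29 ± 0.0828 and −4.38 ± 0.0809 for *Hsp27*, −3.05 ± 0.0559 and −2.96 ± 0.0604 for *Hsp83*, and −1.96 ± 0.101 and −2.18 ± 0.0973 for *Hsp22*. The Hsp70 copies went the other way and rose, as described with that gene family below. In maternal mutant embryos, 5 of 9 members were called over this interval for HIRA (47.4% of all genes) and 4 of 9 for H3.3 (46.2%).

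The late fall of *Hsp27* was smaller in both maternal mutants, and that of *Hsp26* in *H3.3* maternal mutant embryos. The log2 fold changes over the same interval were −3.29 ± 0.0744 for *Hsp27* and −4.77 ± 0.0736 for *Hsp26* in *HIRA* maternal mutant embryos. For *H3.3* maternal mutant embryos they were −1.84 ± 0.0677 and −2.97 ± 0.0586. For *Hsp26* in *HIRA* maternal mutant embryos the difference from wild type in this fall, 0.53 ± 0.0929, was under the fold threshold. At 2.5 to 3 h, *Hsp27* stood at 84.0 and 85.3 CPM in *HIRA* maternal mutant embryos, against 21.2 and 18.9 CPM in wild type. It stood at 222 and 213 CPM in *H3.3* maternal mutant embryos, against 26.1 and 28.7 CPM in wild type. These were 4.21-fold (log2 2.07 ± 0.0754, adjusted p = 8.89e-10) and 7.95-fold (2.99 ± 0.0790, adjusted p = 2.77e-14) higher levels, with no overlap between groups. Because whole embryos were pooled, fewer cells that hold an RNA and less of it per cell cannot be told apart, and neither can synthesis and decay.

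*Hsp26* was 4.80-fold higher in *H3.3* maternal mutant embryos at 2.5 to 3 h, at 142 and 145 CPM, against 30.3 and 29.5 CPM in wild type (log2 fold change 2.26 ± 0.0644, adjusted p = 6.39e-14). In *HIRA* maternal mutant embryos it was at 29.5 and 30.0 CPM, against 20.7 and 19.3 CPM in wild type, a log2 fold change of 0.57 ± 0.0701 that did not pass the fold threshold. *Hsp83* showed the same order, with 1028 and 1043 CPM in *H3.3* maternal mutant embryos, against 557 and 512 CPM in wild type (log2 fold change 0.95 ± 0.0569, adjusted p = 3.03e-10, under the fold threshold). It was at 414 and 448 CPM in *HIRA* maternal mutant embryos, against 380.2 and 395 CPM in wild type (0.15 ± 0.0521). *Hsp22*, at 16.1 and 17.6 CPM in *H3.3* maternal mutant embryos, against 6.87 and 7.46 CPM in wild type, was 2.36-fold higher (log2 1.24 ± 0.102, adjusted p = 1.47e-08). The *Hsp83* value passed the threshold with library totals (log2 fold change 1.25), DESeq2 size factors (1.001) and the HIRA wild type as reference (1.42). It also passed without 1 wild-type library (replicate 1, log2 fold change 1.02). The *Hsp22* value was 0.85 against the HIRA wild type in place of its own.

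Other maternal RNAs were also higher in the late mutants. The summed level of 5 maternal marker RNAs (*bcd*, *smg*, *twe*, *png* and *gnu*) at 2.5 to 3 h was 2554 and 2487 CPM in *HIRA* maternal mutant embryos, against 246 and 234 CPM in wild type. It was 2614 and 2533 CPM in *H3.3* maternal mutant embryos, against 443 and 478 CPM in wild type. Of these markers 4 of 5 and 5 of 5 rose, against 13.7% and 25.7% of all genes tested. The 7 germ plasm markers, RNAs kept at the posterior pole, summed to 3257 and 3327 CPM in *HIRA* maternal mutant embryos, against 1204 and 1174 CPM in wild type. They summed to 4244 and 4246 CPM in *H3.3* maternal mutant embryos, against 1766 and 1564 CPM in wild type. Many *HIRA* maternal mutant embryos of this age were described as arrested or delayed, so that the labelled age and the stage reached may differ. The part of these markers in the heat shock values was not tested.

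**Figure D3:**
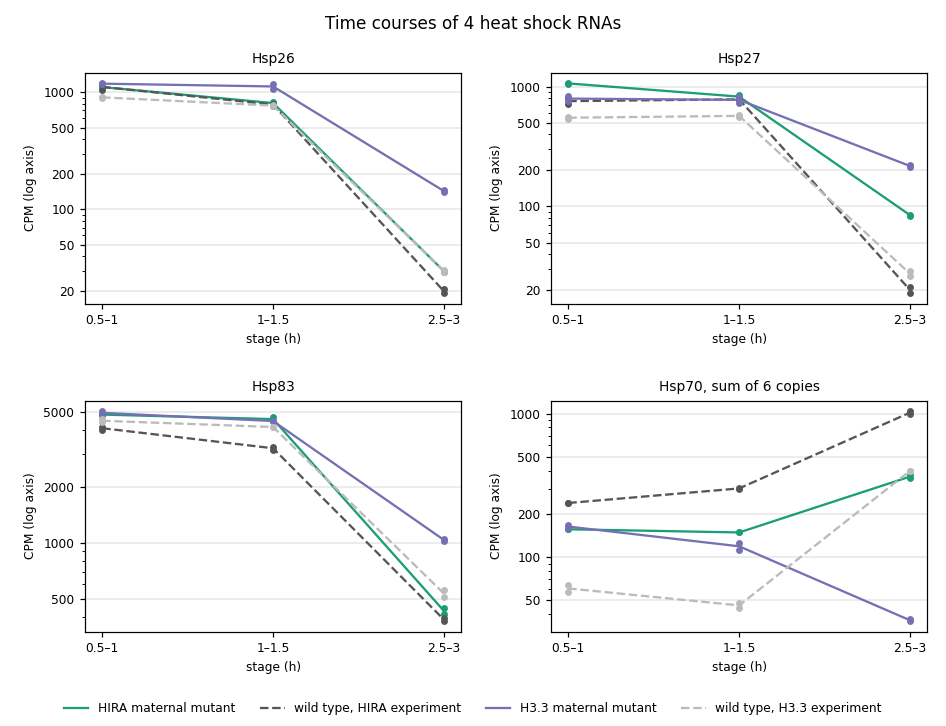
Levels of *Hsp26*, *Hsp27*, *Hsp83* and the Hsp70 sum (CPM, log axis) at 0.5 to 1, 1 to 1.5 and 2.5 to 3 h in the HIRA and H3.3 experiments; points are libraries, solid lines join means of maternal mutant embryos and dashed lines means of wild type (2 libraries each). The 3 maternally deposited RNAs fall late, less so in *H3.3* maternal mutant embryos, while the Hsp70 sum climbs in wild type and in *HIRA* maternal mutant embryos and drops in *H3.3* maternal mutant embryos.

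Before 1.5 h, none of these 3 abundant RNAs passed the fold threshold in *HIRA* or *H3.3* maternal mutant embryos. *Hsp26* was at 1108 and 1109 CPM in *HIRA* maternal mutant embryos at 0.5 to 1 h, against 1179.6 and 1045 CPM in wild type. By 1 to 1.5 h it was at 826 and 793 CPM in the mutant, against 771 and 801 CPM in wild type, and the libraries overlapped at both stages. *Hsp26* in *H3.3* maternal mutant embryos was at 1172 and 1199 CPM at 0.5 to 1 h, against 915 and 897 CPM in wild type, and at 1066 and 1179 CPM at 1 to 1.5 h, against 778 and 761 CPM in wild type. These were log2 fold changes of 0.39 ± 0.0537 and 0.54 ± 0.0539 (adjusted p = 2.79e-05 and 9.87e-07), and at 1 to 1.5 h the mutant libraries lay above all 10 wild-type libraries of the stage. *Hsp27* had log2 fold changes of 0.49 ± 0.0673 and 0.08 ± 0.0672 in HIRA and of 0.53 ± 0.0652 and 0.44 ± 0.0652 in *H3.3* maternal mutant embryos. For *Hsp83* they were 0.24 ± 0.0517 and 0.52 ± 0.0518 in HIRA, and 0.14 ± 0.0558 and 0.11 ± 0.0558 in H3.3.

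In mislocalized dPCIF1 mutant embryos the 2 most abundant of these RNAs were already lower at 1 to 1.5 h. *Hsp26* was at 272 and 267 CPM in the mutant, against 692 and 676 CPM in wild type, and fell by 1.34 on the log2 scale (SE 0.0309, adjusted p = 5.17e-18). *Hsp83* was at 2031 and 1973 CPM in the mutant, against 4489 and 4516 CPM in wild type, and fell by 1.17 (SE 0.0295, adjusted p = 2.07e-17). Both lay below all 10 wild-type libraries of the stage, although against the wild types of the other experiments the *Hsp83* difference was −0.90. In the earlier embryos, at 0.5 to 1 h, *Hsp26* was at 803 and 789 CPM in the mutant, against 917 and 924 CPM in wild type (log2 fold change −0.21 ± 0.0295). *Hsp83* was at 3894 and 3916 CPM, against 5797 and 5784 CPM in wild type (−0.57 ± 0.0291). *Hsp27* moved less, at 347 and 365 CPM in the mutant and 514 and 516 CPM in wild type at 1 to 1.5 h (log2 fold change −0.53 ± 0.0336).

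The early fall of *Hsp26* in time was seen in the same embryos. Between 0.5 to 1 h and 1 to 1.5 h, 2 of 9 members were called in mislocalized dPCIF1 mutant embryos (24.9% of all genes), one being *Hsp26*, which fell by 1.56 (SE 0.0308, adjusted p = 5.99e-19). No member was called in the wild type of that experiment (14.8% of all genes; 5 members had an unadjusted p below 0.05 in edgeR, and DESeq2 called 0). The genotype effect on *Hsp26* itself differed between the 2 stages, by −1.13 on the log2 scale (adjusted p = 9.63e-14), the only called difference among the 9 members (16.2% of all genes).

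HIRA-overexpressing embryos also had lower levels of these RNAs than wild type at 1 to 1.5 h, under the fold threshold. *Hsp26* was at 399 and 382 CPM with HIRA and at 579.7 and 621 CPM with both transgenes, against 762 and 706 CPM in wild type, log2 fold changes of −0.91 ± 0.0410 and −0.29 ± 0.0405. *Hsp83* was at 2679 and 2734 CPM with HIRA and at 4325 and 4293 CPM with both, against 4301 and 4383 CPM in wild type (−0.68 ± 0.0269 and −0.01 ± 0.0267). *Hsp27* had log2 fold changes of −0.76 ± 0.0424 with HIRA and −0.24 ± 0.0420 with both. Embryos with both transgenes thus stood closer to wild type than those with HIRA alone in all 3 RNAs. They differed from the HIRA group by 0.62 ± 0.0412 for *Hsp26*, 0.67 ± 0.0269 for *Hsp83* and 0.52 ± 0.0426 for *Hsp27*, below the fold threshold. Over time, *Hsp26* was the 1 member of 7 called in HIRA-overexpressing embryos between the 2 stages (20.4% of all genes), where it fell by 1.18 (SE 0.0411, adjusted p = 3.30e-14).

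Markers of embryonic age were read in the same embryos. A set of 8 zygotic genes of the blastoderm summed at 1 to 1.5 h to 2329.8 and 2225 CPM in mislocalized dPCIF1 mutant embryos, against 524 and 528 CPM in wild type, and all 8 rose. Of all genes tested in these mutants at that stage, 12.4% were higher and 15.03% lower. In the overexpression experiment they summed to 1362 and 1363 CPM with HIRA and to 822 and 838 CPM with both, against 491 and 505 CPM in wild type. The germ plasm markers summed to 6357 and 6222 CPM in mislocalized dPCIF1 mutant embryos, against 8317 and 8331 CPM in wild type, and 3 of 7 fell. The 5 maternal markers summed to 3871 and 3719 CPM in these mutants, against 3656 and 3633 CPM in wild type, with 1 of 5 (*png*) lower. Their part in the *Hsp26* and *Hsp83* values was not tested.

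In dPCIF1 S111A S115A mutant embryos, *Hsp26* was at 974 and 1001 CPM at 0.5 to 1 h, against 1093 and 1169.5 CPM in wild type. It was at 578 and 528 CPM in the mutant at 1 to 1.5 h, against 802 and 823 CPM in wild type (log2 fold changes −0.20 ± 0.0525 and −0.56 ± 0.0533). *Hsp27* had values of 0.05 ± 0.0469 and −0.12 ± 0.0471 and *Hsp83* of −0.06 ± 0.0682 and −0.29 ± 0.0683 on the same scale. None passed the fold threshold.

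*Hsp22* lay on opposite sides of wild type in the early and late maternal mutants. At 0.5 to 1 h it was at 19.2 and 18.7 CPM in *HIRA* maternal mutant embryos, against 36.3 and 35.9 CPM in wild type. In *H3.3* maternal mutant embryos it was then at 17.6 and 19.2 CPM, against 28.8 and 28.4 CPM in wild type. *Hsp22* at 1 to 1.5 h was at 17.4 and 20.1 CPM in *HIRA* maternal mutant embryos, against 36.8 and 36.2 CPM in wild type. The mutants of H3.3 had 17.3 and 17.2 CPM, against 33.8 and 30.8 CPM in wild type. The log2 fold changes, −0.93 ± 0.0943 and −0.95 ± 0.0923 for HIRA and −0.64 ± 0.0829 and −0.91 ± 0.0839 for H3.3, were under the fold threshold, although all 8 mutant libraries lay below all 10 wild-type libraries of their stage. By 2.5 to 3 h the mutants were above wild type, at 12.7 and 13.1 CPM in *HIRA* maternal mutant embryos, against 10.5 and 8.04 CPM in wild type (log2 fold change 0.46 ± 0.117), and at the called H3.3 difference given with the late maternal RNAs. Holding dPCIF1 on lipid droplets went with more *Hsp22*, at 39.5 and 37.99 CPM at 0.5 to 1 h in mislocalized dPCIF1 mutant embryos, against 27.0 and 29.4 CPM in wild type. By 1 to 1.5 h it was at 44.1 and 42.5 CPM in that mutant, against 26.6 and 26.5 CPM in wild type (log2 fold changes 0.46 ± 0.0585 and 0.71 ± 0.0567). These differences also stayed under the fold threshold.

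*Hsp67Ba*, the least abundant member, was higher in *HIRA* maternal mutant embryos than in the wild type of their experiment at the first and last stages. It was at 0.961 and 0.674 CPM at 0.5 to 1 h, against 0.242 and 0.419 CPM in wild type (log2 fold change 1.29 ± 0.419, adjusted p = 0.0238). Late, it was at 1.09 and 1.68 CPM at 2.5 to 3 h, against 0.626 and 0.611 CPM in wild type (1.17 ± 0.339, adjusted p = 0.00828). Neither call held with DESeq2 (the first had an adjusted p of 0.0723, the second a log2 fold change of 0.84), and single libraries decided both. Without HIRA mutant or wild-type replicate 1 the first was 1.07 or 0.89 with adjusted p = 0.115 or 0.189. Without HIRA mutant replicate 2 the second was 0.81. Against the wild types of the other experiments the first was 0.96 and the second 0.51, both under the fold threshold. In the other 4 experiments *Hsp67Ba* was not called or was too low to test.

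*Hsp68* was lower in mutant than in wild-type embryos of 4 experiments. In *H3.3* maternal mutant embryos it was at 3.00 and 3.13 CPM at 0.5 to 1 h, against 10.8 and 11.3 CPM in wild type. This mutant had 3.43 and 3.56 CPM at 1 to 1.5 h, against 19.6 and 19.0 CPM in wild type. It was at 6.22 and 5.35 CPM in the mutant at 2.5 to 3 h, against 16.5 and 15.3 CPM in wild type. *Hsp68* fell by 1.85 (SE 0.117, adjusted p = 3.23e-09), 2.46 (SE 0.113, adjusted p = 1.12e-10) and 1.46 (SE 0.108, adjusted p = 4.13e-09) on the log2 scale, which is 3.61-fold, 5.52-fold and 2.75-fold. Mutant libraries lay below every wild-type library at all 3 stages. In dPCIF1 S111A S115A mutant embryos it was at 4.40 and 4.21 CPM, against 7.17 and 8.07 CPM in wild type, at 0.5 to 1 h, where the log2 fold change was −0.82 ± 0.132 (adjusted p = 0.000385). These mutants had 3.94 and 3.79 CPM at 1 to 1.5 h, against 8.14 and 8.05 CPM in wild type, and the RNA fell by 1.06 (SE 0.141, adjusted p = 4.04e-05).

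Mislocalized dPCIF1 mutant embryos had *Hsp68* at 4.28 and 4.97 CPM at 0.5 to 1 h, against 9.39 and 9.83 CPM in wild type, and the RNA fell by 1.06 (SE 0.117, adjusted p = 1.42e-07). That call was lost without mutant replicate 1 (−0.95). *Hsp68* at 1 to 1.5 h was at 5.25 and 5.87 CPM in the mutant, against 7.10 and 6.78 CPM in wild type (−0.32, adjusted p = 0.0173), while against the wild types of the other experiments the log2 fold change was −1.71. *Hsp68* encodes a heat-inducible protein of the Hsp70 family, and with extra HIRA it was on both sides of wild type. The log2 fold changes were 0.34 and −0.37 in HIRA-overexpressing embryos at the 2 stages, and −0.40 and −0.89 (adjusted p = 0.00419 and 6.96e-07) in embryos with both transgenes. The last stood at 9.90 and 10.8 CPM, against 19.0 and 19.0 CPM in wild type.

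*HIRA* maternal mutant embryos had less *Hsp68* than the wild type of their experiment, at 17.4 and 17.8 CPM, against 36.7 and 41.4 CPM in wild type, at 0.5 to 1 h. The mutants had 17.7 and 17.4 CPM, against 38.1 and 36.8 CPM in wild type, at 1 to 1.5 h. They had 9.84 and 9.83 CPM, against 22.1 and 22.1 CPM in wild type, at 2.5 to 3 h. *Hsp68* fell by 1.14 (SE 0.0665), 1.10 (SE 0.0653) and 1.17 (SE 0.0771) on the log2 scale (adjusted p = 2.68e-07, 2.00e-07 and 1.01e-07). The direction at the 2 earlier stages rests on that wild type. Against the wild types of the other 4 experiments the log2 fold changes were 0.89 and 0.55, since their *Hsp68* lay at 7.62 to 11.1 CPM at 0.5 to 1 h. At 2.5 to 3 h the mutant libraries lay below both wild types, but against the H3.3 wild type the log2 fold change was −0.69, under the fold threshold.

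**Figure D4:**
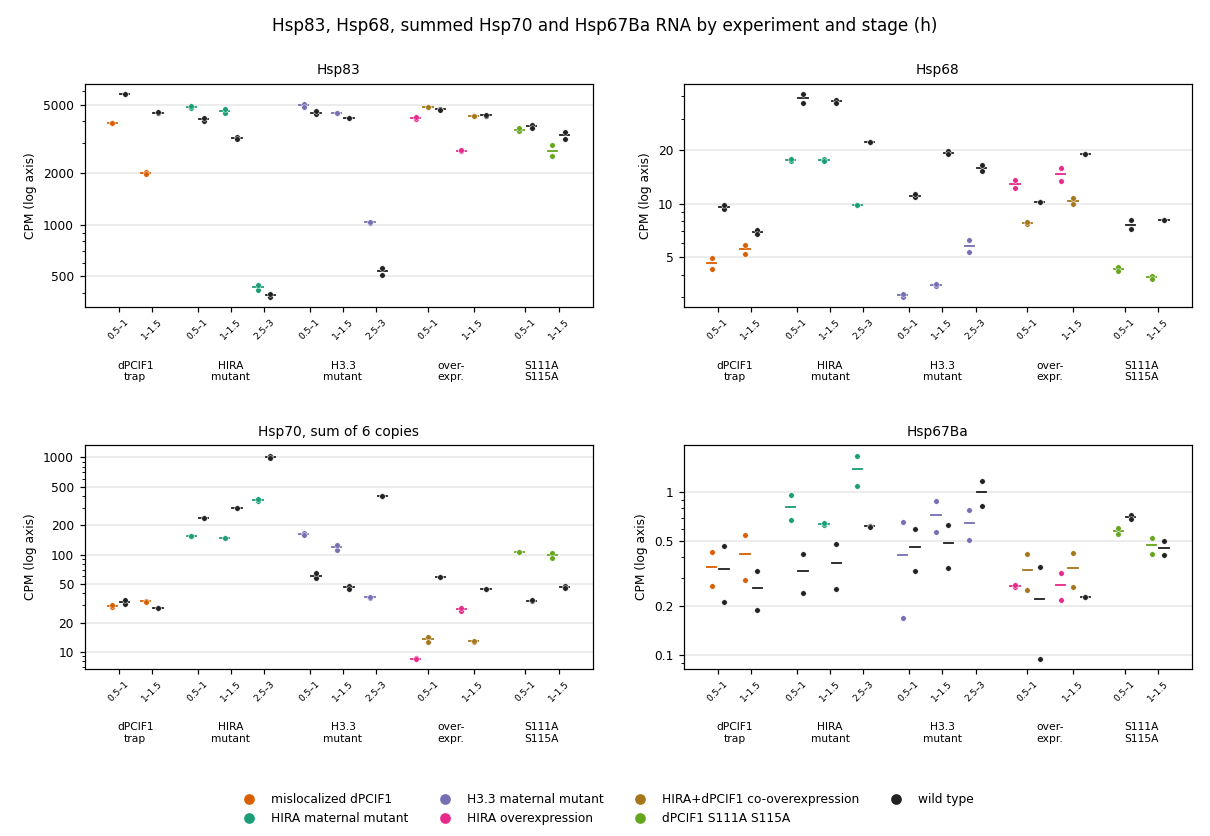
Levels of *Hsp83*, *Hsp68*, the Hsp70 sum and *Hsp67Ba* in every library, in CPM on a log axis, by experiment and stage (h), with each mutant or overexpression group left of its wild type; points are libraries and bars are means of 2. The wild type of the HIRA experiment stands above the other wild types for *Hsp68* (39.0 CPM at 0.5 to 1 h) and for the Hsp70 sum (238 CPM).

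The Hsp70 copies had to be read as a sum. *Hsp70Aa* took a median of 75.1% of the Hsp70 counts, with 0% to 88.9% over the 52 libraries, and *Hsp70Ab* 9.96%, with 2.63% to 85.9%. In the 1 to 1.5 h wild type of the S111A S115A experiment, *Hsp70Aa* was at 36.2 CPM in one replicate and 0.0914 CPM in the other, while *Hsp70Ab* was at 3.87 and 39.1 CPM in the same replicates. Such exchanges between the near-identical copies left the sum nearly the same, at 47.2 and 45.5 CPM. In HIRA-overexpressing embryos at 1 to 1.5 h, *Hsp70Aa* was at 16.8 and 0 CPM. Over groups with no library at 0, the ratio between replicates reached 396 for *Hsp70Aa*, where the lower library held 2 counts, 16.2 for *Hsp70Ab*, 1.13 for the sum and 1.38 for the 4 copies at 87C together. *Hsp70Ba* took at most 3.68% of the counts, *Hsp70Bc* at most 7.17%, *Hsp70Bbb* at most 21.0% and *Hsp70Bb* at most 26.6%.

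**Figure D5:**
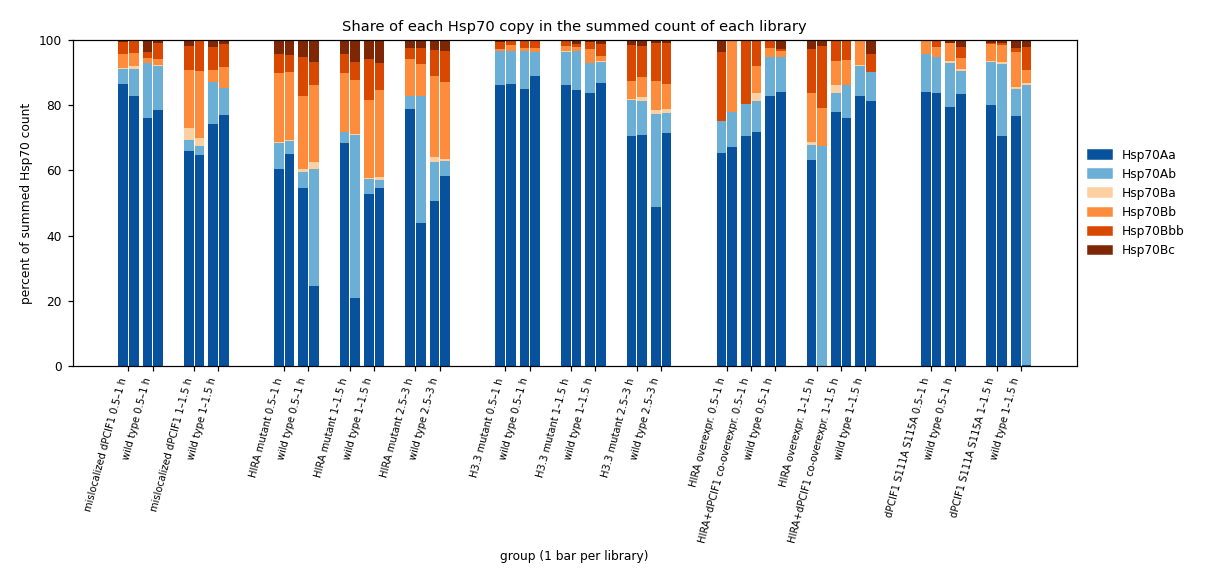
Share of the counts of the 6 Hsp70 copies assigned to each copy (percent, stacked), in each of the 52 libraries. *Hsp70Aa* holds most counts in most libraries, and in 4 groups *Hsp70Aa* and *Hsp70Ab* trade places between replicates of 1 group.

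The Hsp70 sum of *H3.3* maternal mutant embryos differed from wild type in opposite directions early and late. It was at 167 and 160.0 CPM in mutant embryos at 0.5 to 1 h, against 56.9 and 64.2 CPM in wild type, and at 112 and 126 CPM at 1 to 1.5 h, against 47.9 and 44.3 CPM in wild type. At 2.5 to 3 h it was at 35.8 and 36.8 CPM in the mutant, against 397 and 399.8 CPM in wild type. The log2 fold changes were 1.43 ± 0.0668 (adjusted p = 8.09e-11), 1.37 ± 0.0689 (3.09e-10) and −3.45 ± 0.0717 (5.08e-15), the last a 10.96-fold lower level. In wild type the sum rose between 1 to 1.5 h and 2.5 to 3 h by 3.11 ± 0.0699 on the log2 scale, and in *H3.3* maternal mutant embryos it fell by 1.71 (SE 0.0706, adjusted p = 1.83e-12). Both loci took part in the late difference. The 87A pair was at 29.2 and 29.9 CPM in the mutant, against 307 and 310 CPM in wild type, and the 87C copies were at 6.61 and 6.92 CPM, against 90.2 and 89.4 CPM in wild type. At the earlier stages the mutant libraries lay within the spread of the 10 wild-type libraries, whose highest pair is the HIRA wild type. With the wild types of the other experiments as reference the 1 to 1.5 h value was 0.88. *H3.3* maternal mutant embryos at 1 to 1.5 h also held follicle cell markers at a sum of 127 and 149.6 CPM, against 0 and 0 CPM in wild type, where all 4 markers were at 0. The 3 yolk protein markers summed to 361 and 405 CPM in the mutant, against 0.0704 and 0.207 CPM in wild type, and the part of both lists in the Hsp70 values was not tested.

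*HIRA* maternal mutant embryos also fell short of wild type late. Their Hsp70 sum was at 353 and 375 CPM at 2.5 to 3 h, against 1040.4 and 992 CPM in wild type. It fell by 1.48 on the log2 scale (SE 0.0493, adjusted p = 4.34e-10), below both wild types of that stage. The 87A pair was at 293 and 311 CPM in the mutant, against 653 and 624 CPM in wild type. The 87C copies stood further below wild type, at 60.1 and 63.8 CPM in the mutant, against 388 and 368 CPM in wild type, and took 17.0% and 17.0% of the sum, against 37.3% and 37.1% in wild type. The difference between the loci was not tested. *Hsp70Ba* was listed at 0 and 0 CPM in the mutant, against 14.6 and 7.33 CPM in wild type, at least 63.6-fold lower when 3 counts per library are taken as the floor. That bound covers counting error only. Since reads are divided among near-identical copies, it is an uncertain value. Earlier, at 0.5 to 1 h, the sum was at 157 and 156 CPM in the mutant, against 239.9 and 237 CPM in wild type (log2 fold change −0.61 ± 0.0491). It was at 149 and 149 CPM in the mutant, against 298 and 304 CPM in wild type, at 1 to 1.5 h (−1.02 ± 0.0492). Here too the direction rests on the reference: against the other 4 wild types the log2 fold changes were 1.81 and 1.88 at these 2 stages, and −0.13 against the H3.3 wild type at 2.5 to 3 h. The sum rose late in *HIRA* maternal mutant embryos as well, by 1.29 ± 0.0496, against 1.75 ± 0.0497 in wild type.

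The Hsp70 sum was lower in embryos with extra HIRA. At 0.5 to 1 h it was at 8.57 and 8.53 CPM with HIRA and at 14.2 and 12.7 CPM with both transgenes, against 59.2 and 58.7 CPM in wild type. It fell by 2.78 (SE 0.0683, adjusted p = 3.43e-16) and by 2.13 (SE 0.0581, adjusted p = 2.74e-15). At 1 to 1.5 h it was at 26.6 and 28.3 CPM with HIRA and at 12.8 and 13.0 CPM with both, against 44.7 and 44.4 CPM in wild type (log2 fold changes −0.70 ± 0.0558 and −1.79 ± 0.0660, adjusted p = 2.08e-09 and 2.90e-13). The group with HIRA alone was thus lower than the group with both at the first stage and higher at the second. The difference between those 2 groups, both over HIRA alone, was 0.65 (adjusted p = 9.13e-06) at 0.5 to 1 h and −1.09 ± 0.0699 (adjusted p = 1.41e-10) at 1 to 1.5 h. The change with stage in HIRA-overexpressing embryos, a rise of 1.68 ± 0.0769 (adjusted p = 7.89e-13), was seen at both loci. The 87A pair had 6.45 and 6.64 CPM at 0.5 to 1 h and 18.0 and 19.0 CPM at 1 to 1.5 h, and the 87C copies 2.12 and 1.89 CPM and then 8.6 and 9.22 CPM.

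In dPCIF1 S111A S115A mutant embryos the Hsp70 sum was higher than in their wild type. It was at 105 and 106 CPM in the mutant, against 33.1 and 33.8 CPM in wild type at 0.5 to 1 h, and at 103 and 93.3 CPM, against 47.2 and 45.5 CPM in wild type at 1 to 1.5 h. It rose by 1.66 ± 0.0575 (adjusted p = 1.68e-10) and 1.09 ± 0.0572 (adjusted p = 5.05e-09) on the log2 scale. These levels lie within the range of the 10 wild-type libraries, and against the wild types of the other experiments the log2 fold changes were 0.54 and 0.61. Most of the difference was at 87A, where the mutant had 96.5 and 86.5 CPM at 1 to 1.5 h, against 40.1 and 39.2 CPM in wild type. The 87C copies had 6.88 and 6.76 CPM in the mutant and 7.08 and 6.31 CPM in wild type.

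The Hsp70 sum of mislocalized dPCIF1 mutant embryos was close to that of their own wild type. The sum was at 28.8 and 30.7 CPM in the mutant, against 31.4 and 33.9 CPM in wild type, at 0.5 to 1 h. It was at 33.5 and 32.9 CPM in the mutant, against 28.2 and 28.4 CPM in wild type, at 1 to 1.5 h (log2 fold changes −0.14 and 0.23, adjusted p = 0.0522 and 0.00162). The wild type of that experiment was the lowest for this sum, and against the wild types of the others the log2 fold changes were −1.30 and −1.14, past the threshold. At 1 to 1.5 h the 87C copies were at 10.3 and 10.7 CPM in the mutant, against 3.66 and 4.21 CPM in wild type, and the 87A pair at 23.2 and 22.2 CPM, against 24.5 and 24.1 CPM in wild type. *Hsp70Ba* itself was at 1.23 and 0.779 CPM in the mutant, against 0 and 0.0758 CPM in wild type (adjusted p = 9.19e-06), at least 9.01-fold higher with 3 counts per library as the floor. That it rests on a few counts of a gene with near-identical copies makes this an uncertain value.

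Whether a genotype effect differed between stages was tested directly. Between 1 to 1.5 h and 2.5 to 3 h, the effect differed for 2 of 9 members in *HIRA* maternal mutant embryos (22.1% of all genes), with differences of 1.42 for *Hsp22* and 2.00 for *Hsp27*. For *H3.3* maternal mutant embryos it differed in 6 of 9 (28.3% of all genes), with 2.15 for *Hsp22*, 1.72 for *Hsp26*, 2.55 for *Hsp27*, 1.01 for *Hsp68*, −4.58 for *Hsp70Aa* and −5.31 for *Hsp70Ba*, and of −4.82 for the Hsp70 sum. For *Hsp68* the difference fell to between 0.89 and 0.98 when any of 4 single libraries was left out. Between the 2 early stages no member was called for HIRA (7.87% of all genes; 2 members below an unadjusted p of 0.05 in edgeR, 0 called by DESeq2) or H3.3 (10.1%; 3 members, and 1 called by DESeq2). In the overexpression experiment no member was called either, for HIRA alone (13.8%; 5 members below 0.05, 0 by DESeq2) or for both transgenes (5.76%; 3 members, 0 by DESeq2). The Hsp70 sum was called with HIRA alone (2.08, adjusted p = 2.76e-12). For dPCIF1 S111A S115A mutant embryos 0 of 8 were called (7.82% of all genes), with 4 members below an unadjusted p of 0.05 in edgeR and 0 called by DESeq2.

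The early interval itself, 1 to 1.5 h against 0.5 to 1 h, changed few of these RNAs. By edgeR, 0 of 9 members were called in *HIRA* maternal mutant embryos (5.09% of all genes) and in their wild type (11.8%), with 3 and 2 members below an unadjusted p of 0.05. It called 0 in *H3.3* maternal mutant embryos (13.9%) and their wild type (7.26%), with 4 and 5 such members. It called 0 of 7 with both transgenes (3.63%) and in the wild type of that experiment (8.14%), with 4 and 5 such members. It called 0 of 8 in dPCIF1 S111A S115A mutant embryos (13.7%) and their wild type (7.59%), with 4 and 2. DESeq2 called 0 members in each of these 8 intervals. Embryos with both transgenes, set against HIRA alone, had 0 of 7 members called by edgeR at 0.5 to 1 h (7.14% of all genes) and 0 of 7 at 1 to 1.5 h (21.2%), with 4 and 5 members below an unadjusted p of 0.05 and 0 called by DESeq2.

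Other genes of the heat shock system were read from fixed lists. Of 7 further small heat shock genes, 5 could be tested in the maternal mutants, all at low levels. In *HIRA* maternal mutant embryos 3, 4 and 3 of them fell at the 3 stages and 1 (*CG14207*) rose at the last, and 3 of those that fell late were *CG7409*, *Hsp67Bc* and *l(2)efl*. Over all genes tested, 16.2%, 21.0% and 21.8% were lower at these stages and 13.7% were higher at the last. *CG7409* was listed at 0 CPM in the mutant at every stage, against a mean of 0.334, 0.577 and 1.18 CPM in wild type. Late *H3.3* maternal mutant embryos, at 2.5 to 3 h, had 2 of 5 higher, against 25.7% of all genes. At that stage *l(2)efl* averaged 4.05 ± 0.282 CPM in the mutant and 0.245 ± 0.151 CPM in wild type, and *CG7409* 1.64 ± 0.322 CPM in the mutant and 0.0588 ± 0.0831 CPM in wild type (SD, n = 2 each). At that stage *l(2)efl* averaged 0.112 ± 0.0723 CPM in *HIRA* maternal mutant embryos and 3.26 ± 0.646 CPM in their wild type, far above the H3.3 wild type. The directions for these low-level genes are therefore given only against the wild type of each experiment.

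Of 19 partners of the Hsp70 and Hsp90 machines, 18 could be tested in the maternal mutants. At 2.5 to 3 h, 3 rose and 2 fell in *HIRA* maternal mutant embryos (median log2 fold change 0.24, against −0.03 for all genes tested), and 2 rose in *H3.3* maternal mutant embryos (0.14, against −0.06). The shares of all genes were 13.7% higher and 21.8% lower for HIRA, and 25.7% higher for H3.3. One of them, *stv*, a BAG-domain co-chaperone of Hsp70, was at 9.96 and 10.7 CPM in *H3.3* maternal mutant embryos at that stage, against 0.553 and 0.529 CPM in wild type (log2 fold change 4.24 ± 0.244). It was at 1.58 and 1.14 CPM in *HIRA* maternal mutant embryos, against 5.38 and 5.92 CPM in wild type (−2.06 ± 0.217). These mutant libraries lay above the H3.3 wild type of the stage, so that this direction rests on the reference. In mislocalized dPCIF1 mutant embryos at 1 to 1.5 h, 1 of 17 tested rose and 3 fell (median −0.56, against −0.05 for all genes), where 12.4% of all genes tested were higher and 15.03% lower. One that fell was *FKBP59*, an immunophilin that binds Hsp90, at a mean of 39.5 ± 0.169 CPM in the mutant and 156 ± 2.74 CPM in wild type (log2 fold change −1.98 ± 0.0389). Between 1 to 1.5 h and 2.5 to 3 h, 10 of 18 fell in *HIRA* maternal mutant embryos and 11 of 18 in their wild type, against 19.0% and 24.9% of all genes. In the H3.3 experiment 9 of 18 fell in *H3.3* maternal mutant embryos and 10 of 18 in wild type, against 17.9% and 21.7%.

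*Hsromega*, a noncoding RNA of the heat shock response, was at 100 and 107 CPM in *H3.3* maternal mutant embryos at 0.5 to 1 h, against 17.3 and 15.9 CPM in wild type (log2 fold change 2.64). By 2.5 to 3 h it was at 786 and 748 CPM in that mutant, against 718 and 789 CPM in wild type (0.03). With HIRA overexpressed alone it was at 105 and 105 CPM at 0.5 to 1 h, against 22.6 and 22.3 CPM in wild type (2.23). With both transgenes at 1 to 1.5 h it averaged 20.4 CPM, against 74.5 CPM in wild type (−1.84). At 0.5 to 1 h it was at 68.9 and 69.7 CPM in dPCIF1 S111A S115A mutant embryos, against 15.1 and 13.2 CPM in wild type (2.29). At 1 to 1.5 h it was on the other side of wild type, at 65.0 and 69.1 CPM in the mutant, against 119 and 109 CPM in wild type (−0.76, adjusted p = 3.72e-07). In *HIRA* maternal mutant embryos at 1 to 1.5 h it was at 5.91 and 7.004 CPM, against 98.0 and 90.5 CPM in wild type (−3.85). Its sign was opposite to that of the Hsp70 sum with HIRA alone and in the later S111A S115A mutant embryos. With both transgenes at 1 to 1.5 h the signs were the same, so that *Hsromega* and the sum shared no common direction.

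The RNAs of factors that act on these promoters were read next. *Trl*, which encodes GAF, ranged from 133 to 424 CPM over the libraries and was called in no genotype comparison. Its log2 fold changes were 0.51 and 0.70 in mislocalized dPCIF1 mutant embryos at the 2 stages (adjusted p = 8.17e-10 and 1.69e-12), and the lowest was −0.52, in *H3.3* maternal mutant embryos at 2.5 to 3 h. *Hsf*, which encodes HSF, stayed between −0.27 and 0.19. Of 18 regulators and pausing factors, *lolal* rose in mislocalized dPCIF1 mutant embryos at 0.5 to 1 h (1.06 ± 0.0564). *Parp*, whose product loosens chromatin at Hsp70 loci, averaged 173 ± 0.502 CPM in *HIRA* maternal mutant embryos at 0.5 to 1 h and 51.7 ± 35.6 CPM in wild type (SD, n = 2 each). At 1 to 1.5 h it averaged 32.3 ± 21.3 CPM in the mutant and 169 ± 4.18 CPM in wild type. *Parp* thus had log2 fold changes of 1.75 and −2.36, and *E(bx)*, a subunit of the nucleosome remodeler NURF, of 1.34 and −1.80, with wide spread between the replicates of 1 group at each stage. Of the 18, 2 rose in *HIRA* maternal mutant embryos at 2.5 to 3 h (*Clamp* and *Hexim*), and in *H3.3* maternal mutant embryos 1 rose (*Hexim*) and 2 fell, among them *Nelf-A*, at that stage, where 13.7% of all genes were higher for HIRA and 25.7% were higher and 17.6% lower for H3.3.

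Across the 26 groups, which share libraries of 5 experiments and a common decline of maternal RNA, the log levels of *Hsp26* and *Hsp83* correlated with a Pearson r of 0.98, *Hsp26* and *Hsp27* with 0.96, and *Hsp27* and *Hsp83* with 0.92. *Hsp22* followed them less closely (0.77 with *Hsp27*), and *Hsp23*, which lies in the same stretch of 3L, had an r of −0.51 with *Hsp22*. *Hsp68* and the Hsp70 sum, both of the Hsp70 family, had an r of 0.31. Among 6875 genes, the pattern nearest to *Hsp26* was that of *Snx1* and *gammaTub37C* (0.99 each), to *Hsp27* that of *Lsd-2* (0.99), and to *Hsp83* that of *CG7326* and *CG12576* (0.99 each). For *Hsp22* it was *CG11880* (0.92), for *Hsp23* *CG32069* (0.81), for *Hsp68* *Snp* (0.71), and for the Hsp70 sum *FRG1* (0.80). The nearest gene was thus closer for the 3 maternally deposited RNAs than for *Hsp68*.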

How the data were processed

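RNA was measured by sequencing strand-specific, rRNA-depleted libraries of pooled embryos, 2 per group and 52 in all, although 1 label field names polyA RNA. Per the submitters' processing notes, the authors trimmed reads (Trimmomatic 0.39), aligned them to dm6 (STAR 2.7.10a) and deposited expected counts and TPM per gene from RSEM 1.3.1, which divides reads shared by near-identical genes; their DESeq2 1.40.2 results were not used. The deposited expected counts were rounded to whole counts and scaled by TMM factors over all 52 libraries to give CPM; the deposited TPM, normalized by the authors for length, served only to set genes side by side. Totals of 15073545 to 31579940 counts per library mean that members near 1 CPM rest on few counts.

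Genes passing filterByExpr (minimum count 10, minimum total 15), 8708 to 10612 per experiment, were fitted in 1 model per experiment with a mean per group, and compared by edgeR 4.0.16's quasi-likelihood test (R 4.3.3) with Benjamini-Hochberg adjustment over all genes; a call needed an adjusted p below 0.05 and a log2 fold change above 1 in size. Replicates are described as biological. The p-values rest on the spread between the 2 libraries of each group, shared over the groups of an experiment. They do not cover differences between collections. A group with at most 3 counts in each library was treated as at the floor, and folds against it as bounds, which cover counting error only. Scripts were tested on simulated counts. The alternatives were DESeq2 1.42.0, DESeq2 size factors (RLE), TMM within each experiment, library totals, no filter, 1 fit over all libraries, only the groups compared, wild types of the other experiments as reference, a replicate block, the Hsp70 sum in place of its copies, and leaving out each library.

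The members and lists were chosen with earlier results of these data known. Members are named in every comparison; of other lists, at most the 2 largest called changes per list and comparison, and 2 genes most alike per member over the 26 group means (log2 CPM with prior count 2, genes averaging at least 5 CPM). *CG14207*, and *CG7409*, *Hsp67Bc* and *l(2)efl* where named together, were named after their values were seen. No sequences are printed.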

Additional observations from a re-analysis of the deposited data

Results flagged for a closer look

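The effect of a genotype differed between consecutive stages, by a test of the difference itself (quasi-likelihood test of edgeR, Benjamini-Hochberg adjusted), for the following RNAs. In mislocalized dPCIF1 mutant embryos the effect on *Hsp26* was lower at 1 to 1.5 h than at 0.5 to 1 h by −1.13 on the log2 scale (adjusted p = 9.63e-14). In *HIRA* maternal mutant embryos the effect at 2.5 to 3 h exceeded that at 1 to 1.5 h by 1.42 for *Hsp22* (adjusted p = 1.10e-05) and by 2.00 for *Hsp27* (adjusted p = 3.28e-08).

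In *H3.3* maternal mutant embryos the effect at 2.5 to 3 h exceeded that at 1 to 1.5 h by 2.15 for *Hsp22* (adjusted p = 9.58e-10), 1.72 for *Hsp26* (adjusted p = 6.64e-11), 2.55 for *Hsp27* (adjusted p = 7.26e-12) and 1.01 for *Hsp68* (adjusted p = 4.39e-05). For the Hsp70 copies the difference had the other sign, with −4.58 for *Hsp70Aa* (adjusted p = 1.29e-11), −5.31 for *Hsp70Ba* (adjusted p = 0.000422) and −4.82 for the Hsp70 sum (adjusted p = 5.27e-14). In HIRA-overexpressing embryos the effect on the Hsp70 sum was higher at 1 to 1.5 h than at 0.5 to 1 h by 2.08 (adjusted p = 2.76e-12).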

How the results depend on the processing

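The reference decided most of what moved. With the wild types of the other experiments as reference, 6 called values for *HIRA* maternal mutant embryos turned round in sign: *Hsp68* (0.89 at 0.5 to 1 h, 0.55 at 1 to 1.5 h), *Hsp70Ba* (3.42 and 0.031 at these stages), *Hsp70Aa* (1.25) and the Hsp70 sum (1.88) at 1 to 1.5 h. Both *Hsp68* values were under the fold threshold, and the *Hsp70Ba* value of 0.031 (SE 0.846) was no difference in either direction. The sum at 0.5 to 1 h, not called against its own wild type, also turned, to a called 1.81, against −0.61 with its own wild type, and so did, in mislocalized dPCIF1 mutant embryos at 1 to 1.5 h, *Hsp70Aa* (−1.04) and the sum (−1.14). Of 130 such values 12 in all gained and 12 lost their call, and the members called at 2.5 to 3 h in *HIRA* maternal mutant embryos were 2. The cause was not tested.

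DESeq2 gained 2 calls and lost 10 among 363 values, and called 1 member (in place of 2) with HIRA and with both transgenes at both stages and in dPCIF1 S111A S115A mutant embryos at 0.5 to 1 h, and 1 in place of 0 for the early stage difference of H3.3. In *HIRA* maternal mutant embryos it lost *Hsp67Ba* at 0.5 to 1 h, at 2.5 to 3 h and over the late interval. It also lost *Hsp70Aa* at 1 to 1.5 h in those embryos and in dPCIF1 S111A S115A mutant embryos. Library totals gave 0 calls in mislocalized dPCIF1 mutant embryos at 0.5 to 1 h. TMM within each experiment, and no filter, each gave 1 call for the stage difference with HIRA overexpression. With no filter there was also 1 call in place of 0 for the early HIRA stage difference, the early intervals of H3.3 and dPCIF1 S111A S115A mutant embryos and both transgenes against HIRA alone at 0.5 to 1 h, and 2 in place of 1 for the HIRA-overexpression interval. With the Hsp70 sum in place of its copies, an alternative chosen after seeing the data, 1 member was called with HIRA at 1 to 1.5 h and 1 for both transgenes against HIRA alone at that stage. Group levels moved by at most 1.14-fold with TMM within experiments, 1.33-fold with RLE factors and 1.19-fold with library totals. These settings shifted all log2 fold changes by −0.23 to 0.15, −0.35 to 0.45 and −0.19 to 0.30.

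Leaving out 1 library at a time gained 17 calls and lost 21 among 1752 values. The members called ranged from 0 to 1 in mislocalized dPCIF1 mutant embryos at 0.5 to 1 h (0 without mutant replicate 1), from 3 to 5 in *HIRA* maternal mutant embryos at 2.5 to 3 h (3 without mutant replicate 2), were 1 throughout for dPCIF1 S111A S115A mutant embryos at 0.5 to 1 h, and ranged from 1 to 2 for the interval of HIRA overexpression. They ranged from 0 to 1 for the early intervals of HIRA and *H3.3* maternal mutant embryos, of the HIRA wild type and of both S111A S115A groups, for the early stage differences of HIRA, HIRA overexpression and S111A S115A, and for both transgenes against HIRA alone at 1 to 1.5 h. *Hsp70Aa* held more of the gained and lost calls than any other member. A replicate block changed the call of 0 of 363 values. Same-numbered libraries deviated together little at most (r between −0.0646 and 0.152 over the genes fitted). Replicate numbers were not treated as pairs in the main fit, and a link that touched few genes would not show in this correlation. The planned promoter motif description was not run, since no sequences were at hand. Depth limits *Hsp67Ba* and *Hsp70Ba*, which had few counts.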
